A study of Rattus norvegicus with 24 samples.

Results

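Messenger RNA of 3 genes of the hypoxia response was examined in rat neonatal microglia, the resident macrophages of the brain. The genes were Hif1a (ENSRNOG00000008292), Vegfa (ENSRNOG00000019598) and Slc2a1 (ENSRNOG00000007284), chosen by name, by a rule that uses no measured value, although it was written with earlier results of these data known. They are 3 of the 32754 genes counted in each sample, and all 3 were among the 12860 genes that passed the filter on low values. Reads were counted in 24 samples that fell into 8 groups of 3, by sex, oxygen and injection. Sprague Dawley pups of both sexes were kept from postnatal day 1 for 8 days in normoxia (Nx, 21% O2) or in intermittent hypoxia (IH), which alternated 10.5% and 21% O2 in 2 min cycles for 8 h a day. At postnatal day 9, 16 h after the last exposure, each pup received an intraperitoneal injection of vehicle or of lipopolysaccharide (LPS), a component of bacterial outer membranes, at 0.1 mg/kg, and microglia were taken 3 h later. The design text gives the vehicle as saline, while the methods name a balanced salt solution. The cells were drawn with anti-CD11b/c magnetic beads from whole brain without cerebellum and olfactory bulbs. The samples were described as biological replicates, but the labels do not say whether a sample was 1 pup or a pool, so the p-values measure the spread between these samples.

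HIF-1α, the protein made from Hif1a, is a transcription factor that pairs with ARNT and binds hypoxia response elements in DNA. Prolyl hydroxylases use oxygen to mark the protein for destruction, so hypoxia raises HIF-1α mainly by sparing the protein, and the level of Hif1a mRNA is not a readout of HIF-1α activity. Among its classic target genes are Slc2a1, which encodes the glucose transporter GLUT1, and Vegfa, which encodes a secreted growth factor for blood vessels. In macrophages, LPS acting through NF-κB is known to raise Hif1a transcription, and activated macrophages take up more glucose through GLUT1.

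The bases before the 3 start sites are shown because they are where a reader would first look for the core of a hypoxia response element. They are the 250 bases before each gene's annotated start in RefSeq, on build GRCr8, all on the plus strand, whereas the reads were counted on build rn6. The Slc2a1 stretch is chr5:138002272-138002521, that of Hif1a is chr6:98359648-98359897 and that of Vegfa is chr9:22452604-22452853. Capitals mark the core sequences ACGTG and GCGTG, searched on both strands, so that a reverse-strand match reads CACGT or CACGC.
Slc2a1: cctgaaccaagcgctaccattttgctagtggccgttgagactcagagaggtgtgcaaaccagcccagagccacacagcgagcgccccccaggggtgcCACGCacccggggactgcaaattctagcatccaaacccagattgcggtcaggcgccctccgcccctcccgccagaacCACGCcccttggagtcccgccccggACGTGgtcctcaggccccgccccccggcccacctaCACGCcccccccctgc
Hif1a: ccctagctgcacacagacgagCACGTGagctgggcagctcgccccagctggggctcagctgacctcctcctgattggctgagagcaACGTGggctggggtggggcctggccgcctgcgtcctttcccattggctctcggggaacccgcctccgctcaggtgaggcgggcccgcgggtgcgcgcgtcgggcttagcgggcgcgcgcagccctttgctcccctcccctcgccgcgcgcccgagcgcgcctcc
Vegfa: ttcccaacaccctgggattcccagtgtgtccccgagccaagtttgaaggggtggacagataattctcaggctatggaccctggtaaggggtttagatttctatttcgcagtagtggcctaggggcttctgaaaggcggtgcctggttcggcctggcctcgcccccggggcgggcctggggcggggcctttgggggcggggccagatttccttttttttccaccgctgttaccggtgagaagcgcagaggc
The Slc2a1 stretch held 1 ACGTG, 51 bases before the start, and 3 reverse-strand matches to GCGTG that began 153, 76 and 16 bases before it. The Hif1a stretch held ACGTG on both strands within the E-box CACGTG, which began 229 bases before the start, and 1 more ACGTG beginning 164 bases before it. The Vegfa stretch held neither core, and no window of the 3 genes, searched with the 50 bases after the start included, held a match to the κB motif of NF-κB. Vegfa has a second annotated start in RefSeq, on chromosome 9 with a window from 22460028 to 22460327, and that window held neither core either. Such cores are common. Of 33469 RefSeq windows of 300 bases, 41.64% held at least 1 of the cores, and among the 8777 windows with at least 60% G or C the share was 68.28%. Matches to the κB motif were rarer, in 5.02% of all windows and 8.34% of those with at least 60% G or C. Most windows thus hold none. The windows of Slc2a1, Hif1a and Vegfa had 68.3%, 73.7% and 63.3% G or C. A match is a string of letters and not a bound site, and the well known hypoxia response elements of Vegfa and Slc2a1 lie farther upstream than these stretches.

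Each sample held between 6624453 and 8548714 reads counted in genes, with a median of 7532796.5. Between 17.4% and 24.1% of uniquely aligned reads fell in no annotated gene. Alignments that were not unique made up 11.7% to 15.8% in 23 samples and 23.4% in male Nx replicate 2, which also had the lowest Hif1a of all 24 samples. Without it the uncalled Hif1a values were -0.16 for IH with vehicle and 0.18 for LPS in Nx, and the part of that share in the Hif1a values was not tested. No pair of samples in a group was close enough to be 1 library deposited again, the lowest chi-square per degree of freedom being 7.65. Levels are given below as CPM, the count scaled to the library's total, after TMM scaling, which adjusts for differences in library composition. Since CPM is not divided by transcript length, levels are compared between samples for 1 gene and never between genes. The microglial identity of the isolates, and their content of endothelium and astrocytes, which also make Slc2a1 and Vegfa, were not analysed here, because no table used here pairs the identifiers of those marker genes with names. In such bulk samples, fewer cells of a type and less RNA per cell cannot be told apart.

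Over all 24 samples, Slc2a1 was the steadiest of the 3 genes and Vegfa the most thinly counted. Slc2a1 was read with 303 to 1221 counts per sample and Hif1a with 152 to 772. Vegfa had 16 to 90 counts per sample, so that its low values carry the largest counting error. The biological coefficient of variation, which is the spread between samples of a group beyond counting error, was 20.9% for Slc2a1, 35.0% for Hif1a and 43.5% for Vegfa. The ratio of the highest to the lowest sample was 4.07 for Slc2a1, 4.71 for Hif1a and 6.25 for Vegfa.

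**Figure D1:**
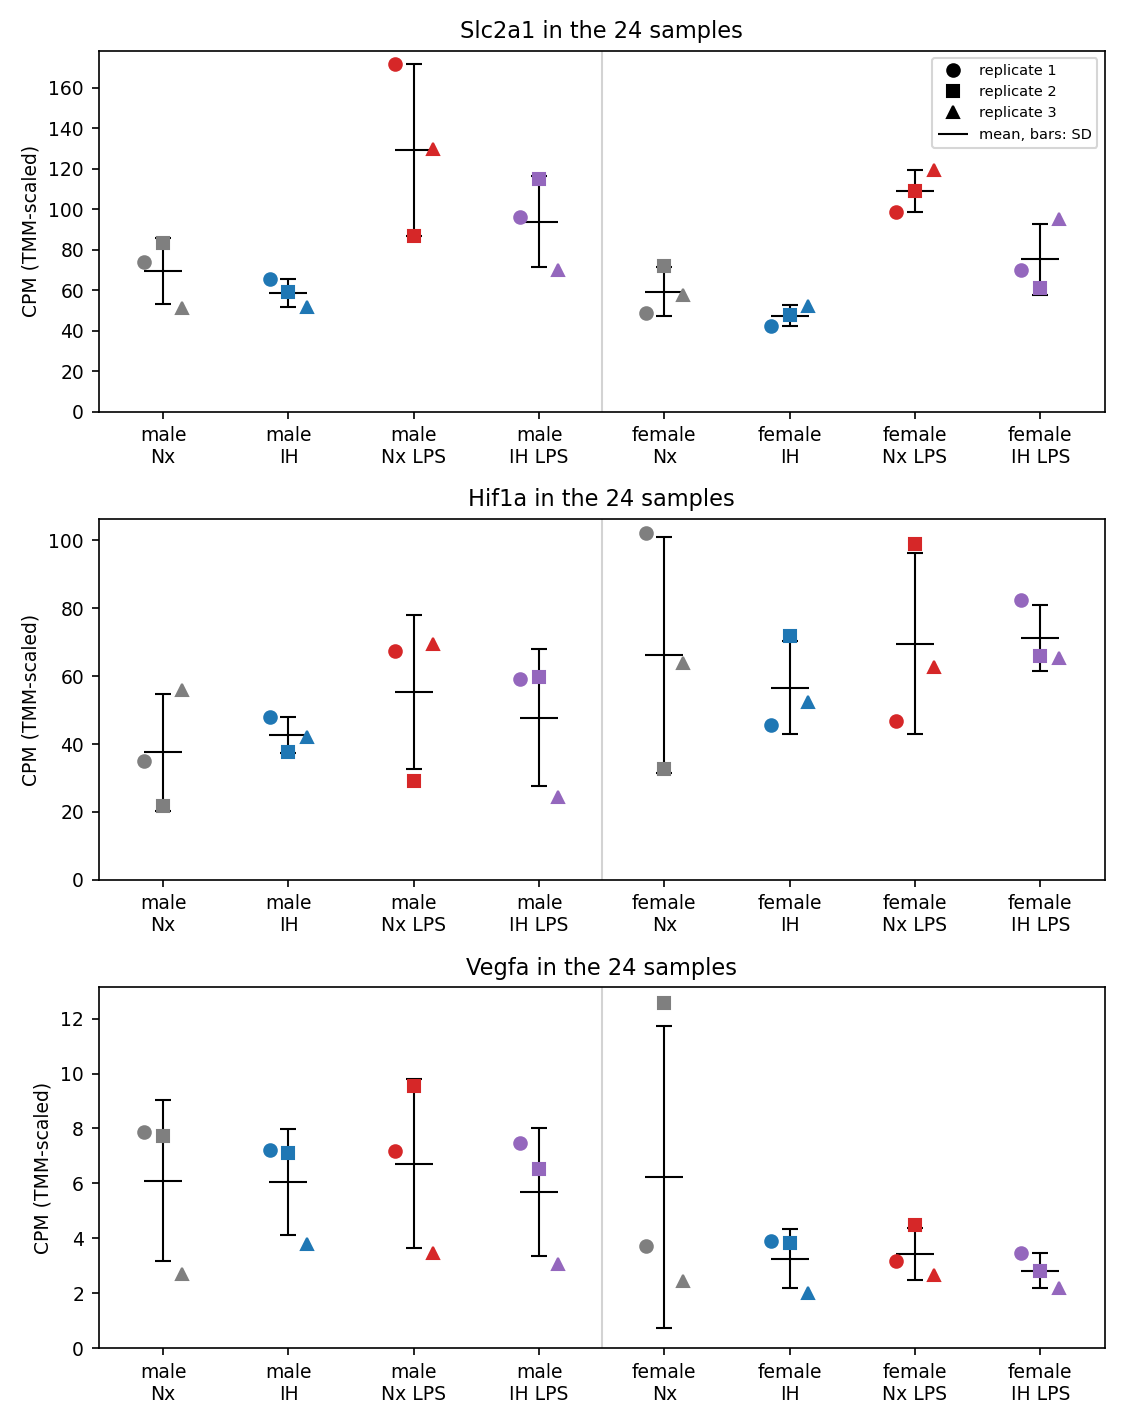
CPM after TMM scaling (vertical axes) of Hif1a, Vegfa and Slc2a1 in each of the 24 samples, by group (horizontal axis), with points for samples and bars for group means with SD (n = 3). The 6 Nx LPS samples of Slc2a1 lie between 86.5 and 172 CPM, all above the 6 Nx vehicle samples. For Hif1a and Vegfa the samples overlap in every comparison of oxygen or of injection.

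Hif1a, the gene for the oxygen-regulated subunit of HIF-1, showed no shift with either exposure beyond its wide spread. In males with vehicle, Hif1a was at 35.1, 21.7 and 55.8 CPM after Nx and at 48.1, 37.7 and 42.0 CPM after IH. In males with LPS, Hif1a was at 67.3, 29.2 and 69.6 CPM after Nx and at 59.3, 59.6 and 24.4 CPM after IH. Each male LPS group thus had 1 low sample and 2 high ones, and every pair of male groups overlapped. In females with vehicle, Hif1a was at 102, 32.6 and 63.7 CPM after Nx and at 45.5, 71.9 and 52.2 CPM after IH. In females with LPS, Hif1a was at 46.9, 98.9 and 62.6 CPM after Nx and at 82.4, 65.8 and 65.5 CPM after IH. The female Nx vehicle group alone spanned the range of the other 3 female groups, and no comparison of oxygen or of injection separated the Hif1a samples. With the sexes together, the mean was 51.9 ± 29.2 CPM (SD, n = 6) in Nx vehicle, 49.6 ± 12.03 in IH vehicle, 62.4 ± 23.4 in Nx LPS and 59.5 ± 19.1 in IH LPS. Ordered by level, these 4 means ran from IH vehicle through Nx vehicle and IH LPS to Nx LPS, and neighbours in that order differed by less than the SD of either.

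Vegfa, the gene for the secreted vascular growth factor, was the lowest counted of the 3 and differed more between same-group samples than between treatments. In males with vehicle, Vegfa was at 7.88, 7.71 and 2.71 CPM after Nx and at 7.20, 7.12 and 3.81 CPM after IH. In males with LPS, Vegfa was at 7.16, 9.55 and 3.45 CPM after Nx and at 7.49, 6.53 and 3.06 CPM after IH. In all 4 male groups 2 samples stood at 6.53 CPM or more and the other at 3.81 CPM or less. In females with vehicle, Vegfa was at 3.72, 12.6 and 2.46 CPM after Nx and at 3.89, 3.85 and 2.01 CPM after IH. In females with LPS, Vegfa was at 3.17, 4.48 and 2.66 CPM after Nx and at 3.45, 2.82 and 2.20 CPM after IH. One sample, female Nx replicate 2 at 12.6 CPM, was the highest of all 24, and the other 11 female samples lay at or below 4.48 CPM. The means with the sexes together were 6.17 ± 3.94 CPM (SD, n = 6) in Nx vehicle, 5.08 ± 2.71 in Nx LPS, 4.65 ± 2.08 in IH vehicle and 4.26 ± 2.19 in IH LPS, with differences between neighbours smaller than either SD.

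The low Vegfa sample carried the same replicate number in every group. The sample numbered 3 was the lowest for Vegfa in all 8 groups, which was so for 55 of the 12860 genes (0.428%). The reverse, number 3 highest in all 8 groups, was so for 2 genes (0.0156%). Vegfa averaged 5.50 ± 2.09 CPM (SD, n = 8) over the samples numbered 1, 6.83 ± 3.20 over those numbered 2 and 2.80 ± 0.613 over those numbered 3. Slc2a1 and Hif1a did not share this, since number 3 was the lowest in 3 groups for Slc2a1 and in 2 groups for Hif1a. The labels do not say what, if anything, samples of 1 number have in common. This pattern was noticed after the values were seen.

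**Figure D2:**
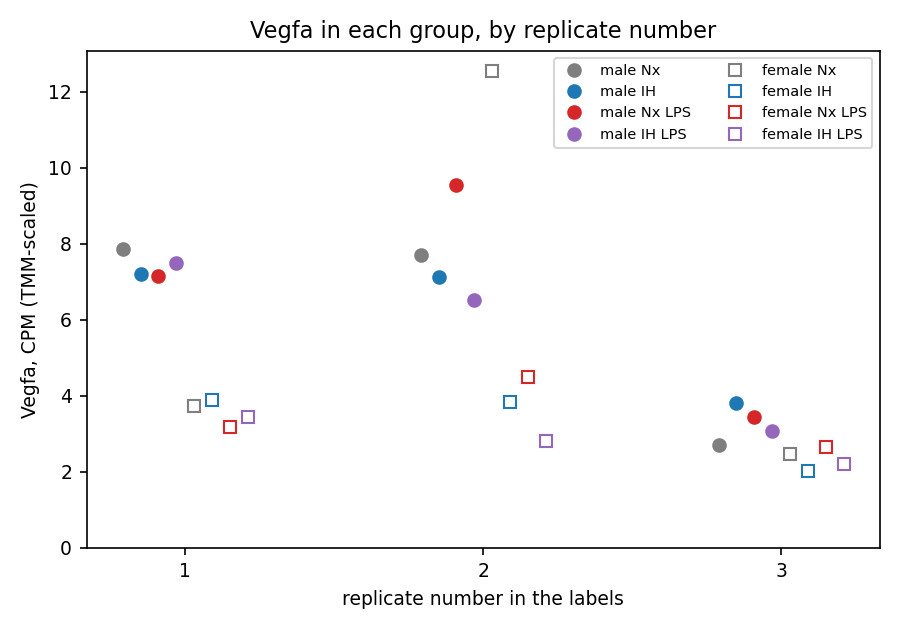
Vegfa in CPM after TMM scaling (vertical axis) by the replicate number in the labels (horizontal axis), 1 point per sample, filled for males and open for females, coloured by oxygen and injection. Samples numbered 3 span 2.01 to 3.81 CPM and are the lowest of their group in all 8 groups.

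Slc2a1, the gene for the glucose transporter GLUT1, was the member whose level followed the injection. In males after Nx, Slc2a1 was at 73.8, 83.4 and 51.4 CPM with vehicle and at 172, 86.5 and 129.7 CPM with LPS. In males after IH, it was at 65.4, 59.3 and 51.5 CPM with vehicle and at 96.3, 115 and 70.2 CPM with LPS. In females after Nx, it was at 48.5, 72.1 and 57.4 CPM with vehicle and at 98.7, 109 and 119 CPM with LPS. In females after IH, it was at 42.1, 47.6 and 52.4 CPM with vehicle and at 69.8, 61.3 and 94.9 CPM with LPS. In each of these 4 pairs, every LPS sample was above every vehicle sample, as it was for 332 of 12860 genes (2.58%). The means with the sexes together ran from 53.0 ± 8.27 CPM (SD, n = 6) in IH vehicle and 64.4 ± 13.99 in Nx vehicle to 84.6 ± 20.7 in IH LPS and 119 ± 29.8 in Nx LPS. The vehicle means differed by less than the Nx SD, whereas the LPS means each stood above both vehicle means by more than 1 SD of the vehicle group.

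The comparison of LPS with vehicle in Nx pups gives the size of the response to an inflammatory stimulus. Slc2a1 rose 1.85-fold with LPS, averaged over the sexes, and was the only one of the 3 genes to pass the test. Its log2 fold change was 0.89 (SE 0.17, 95% interval 0.53 to 1.24), with an adjusted p of 0.00109 by edgeR's quasi-likelihood test with Benjamini-Hochberg adjustment over the 12860 genes. In this comparison 16.1% of the genes were called at an adjusted p below 0.05 and 9.26% were called higher. All 6 LPS samples were above all 6 vehicle samples, as for 4.5% of genes. The rise was moderate among called genes, since 581 of the 1191 genes called higher had a larger fold change. Hif1a had a log2 fold change of 0.31 (SE 0.29, 95% interval -0.29 to 0.92, adjusted p = 0.539 by edgeR) and Vegfa one of -0.35 (SE 0.38, 95% interval -1.14 to 0.43, adjusted p = 0.608 by edgeR). These intervals reach from 0.816-fold to 1.90-fold for Hif1a and from 0.455-fold to 1.35-fold for Vegfa, so a rise of Hif1a as large as that of Slc2a1 was not outside its interval. The Hif1a value was 0.56 in males and 0.07 in females, and with the sexes averaged it ran from 0.14, without female Nx LPS replicate 2, to 0.54, without female Nx replicate 1. The Vegfa value turned sign, to 0.15, without female Nx replicate 2. In an exact two-sided permutation test within each sex, whose smallest possible p is 0.005, the p was 0.005 for Slc2a1, 0.38 for Hif1a and 0.76 for Vegfa.

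After IH the LPS comparison gave the same order of the 3 genes. Slc2a1 rose 1.59-fold, with a log2 fold change of 0.67 (SE 0.17, 95% interval 0.32 to 1.02) and an adjusted p of 0.0167 by edgeR, in a comparison where 7.16% of the genes were called and 5.05% called higher. The 6 IH LPS samples, at 61.3 to 115 CPM, and the 6 IH vehicle samples, at 42.1 to 65.4 CPM, overlapped with the sexes pooled, because the lowest female LPS sample stood below the highest male vehicle sample. Hif1a had a log2 fold change of 0.25 (95% interval -0.36 to 0.86, adjusted p = 0.740 by edgeR) and Vegfa one of -0.14 (95% interval -0.94 to 0.66, adjusted p = 0.914 by edgeR). The exact permutation test gave p = 0.005 for Slc2a1, 0.395 for Hif1a and 0.615 for Vegfa. The call of Slc2a1 after IH was lost without male IH LPS replicate 2 (adjusted p = 0.0502 by edgeR) and without female IH LPS replicate 3 (adjusted p = 0.0599 by edgeR).

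The vehicle groups address the question whether IH alone left a trace. They were sampled 3 h after an injection given 16 h after the last exposure. A trace that had faded by then would not be seen. None of the 3 genes passed the test. Slc2a1 averaged 0.821-fold of its Nx level, with a log2 difference of -0.28 (SE 0.17, 95% interval -0.64 to 0.07, unadjusted p = 0.108 by edgeR). Hif1a had a log2 difference of -0.02 (SE 0.29, 95% interval -0.63 to 0.59, unadjusted p = 0.937 by edgeR). Vegfa had a log2 difference of -0.47 (SE 0.38, 95% interval -1.26 to 0.31, unadjusted p = 0.225 by edgeR), which rested on female Nx replicate 2 and was 0.03 without that sample. Every adjusted p was 1.00 by edgeR. Across all genes 0 (0%) were called by edgeR's quasi-likelihood test, by its likelihood ratio test or by DESeq2, and 130 (1.01%) had an unadjusted p below 0.05 by the quasi-likelihood test. The exact permutation test gave p = 0.105 for Slc2a1, 0.8 for Hif1a and 0.59 for Vegfa. The intervals leave room for changes of either sign in Hif1a and Vegfa, of up to 1.501-fold and 1.24-fold upward, while for Slc2a1 the interval ended at 1.05-fold upward.

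With LPS, IH pups had lower Slc2a1 than Nx pups, by an amount that did not survive adjustment over all genes. Slc2a1 was at 0.709-fold of its Nx LPS level, a log2 difference of -0.50 (SE 0.17, 95% interval -0.85 to -0.15). Its unadjusted p by edgeR was 0.0075 and its adjusted p was 1.00. By unadjusted p it stood 30th of 12860 genes, of which 378 (2.94%) had an unadjusted p below 0.05 and 0 (0%) were called by edgeR's quasi-likelihood test, its likelihood ratio test or DESeq2. In females every IH LPS sample lay below every Nx LPS sample, as for 5.28% of genes, the nearest being 94.9 and 98.7 CPM. With 3 samples against 3, such a separation alone says little. The male samples overlapped. The exact permutation test gave p = 0.035 for Slc2a1, 0.84 for Hif1a and 0.435 for Vegfa, without adjustment for the 12 tests of this kind. Hif1a had a log2 difference of -0.09 (95% interval -0.70 to 0.52) and Vegfa one of -0.26 (95% interval -1.06 to 0.54), neither of which passed.

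The Slc2a1 mean was lower after IH in all 4 pairs of groups, males and females with vehicle and with LPS, as for 966 of 12860 genes (7.51%). None of these differences was called. In males the mean was 69.5 ± 16.4 CPM (SD, n = 3) after Nx and 58.7 ± 6.93 after IH with vehicle, and 129 ± 42.5 against 93.9 ± 22.6 with LPS. In females the mean was 59.3 ± 11.9 CPM (SD, n = 3) after Nx and 47.4 ± 5.11 after IH with vehicle, and 109 ± 10.2 against 75.3 ± 17.5 with LPS. The difference exceeded both SDs in females, by little with vehicle, and did not exceed the Nx SD in males.

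Values of other LPS-raised genes were set beside those of Slc2a1. The study singled out 12 NF-κB targets on these same samples, which are therefore not independent evidence. All 12 were called higher with LPS in Nx, where 9.26% of all genes were. Their median log2 fold change was 4.96 against -0.04 over all genes. After IH 11 of the 12 were called higher, where 5.05% of all genes were, with a median of 4.56 against -0.005 over all genes. Comparing IH LPS with Nx LPS, 0% of all genes were called, and so 0 of the 12. Their log2 differences there ran from -1.28 to -0.55 with a median of -0.89, against 0.00 over all genes, but the study had listed them for low values in females in this comparison, so their direction is no independent result. With vehicle the differences of the 12 between IH and Nx ran from -0.90 to 1.87, with a median of 0.01 against -0.02 over all genes. The part of these 12 genes in the Slc2a1 difference with LPS was not tested.

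The LPS effect in Nx and the IH effect with vehicle were set against each other for each gene as a signed difference. As the Nx vehicle samples enter both effects, this is the difference between the Nx LPS and the IH vehicle samples. It says whether the effects differ and not which is larger in size. For Slc2a1, whose effects were 0.89 and -0.28 and so opposite in sign, it was 1.17 on the log2 scale (SE 0.17, 95% interval 0.82 to 1.52, adjusted p = 7.74e-05 by edgeR), in a comparison where 15.5% of genes were called. For Hif1a the corresponding difference was 0.34 (95% interval -0.27 to 0.95, adjusted p = 0.521 by edgeR) and for Vegfa 0.12 (95% interval -0.68 to 0.92, adjusted p = 0.896 by edgeR). The LPS effect after IH was not shown to differ from that in Nx for any of the 3 genes. The difference of the log2 effects was -0.21 for Slc2a1 (95% interval -0.71 to 0.28, unadjusted p = 0.381 by edgeR), and -0.084 without male Nx LPS replicate 1. For Hif1a it was -0.07 (95% interval -0.93 to 0.79). For Vegfa it was 0.21 (95% interval -0.91 to 1.34), and turned to -0.29 without female Nx replicate 2. In all, 0 genes (0%) were called and 182 (1.42%) had an unadjusted p below 0.05 by edgeR.

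**Figure D3:**
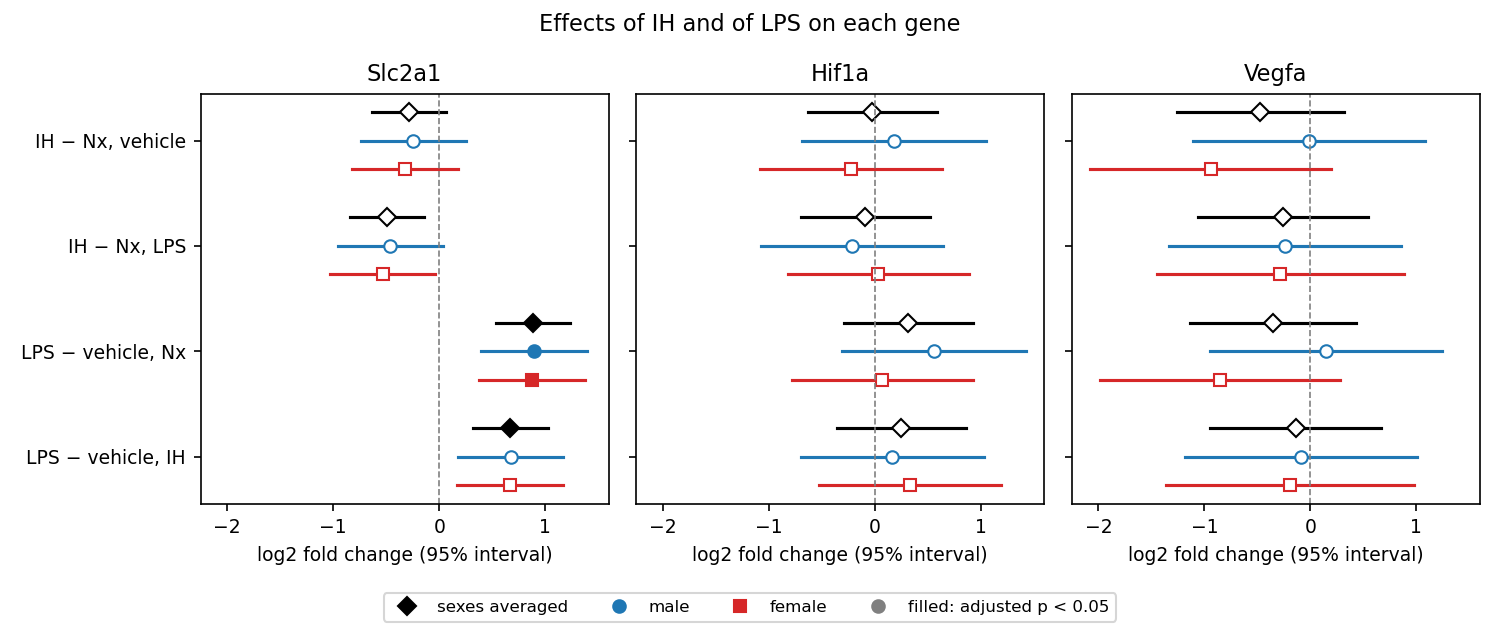
Log2 fold changes (horizontal axis) of Hif1a, Vegfa and Slc2a1 with 95% intervals from edgeR's quasi-likelihood fit, for IH against Nx with vehicle and with LPS, and LPS against vehicle in Nx and after IH, with diamonds for the sexes averaged, circles for males, squares for females and filled symbols for an adjusted p below 0.05. The Slc2a1 intervals for LPS with the sexes averaged lie above 0, at 0.53 to 1.24 in Nx and 0.32 to 1.02 after IH, while every interval of Hif1a and Vegfa includes 0.

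The effects on Slc2a1 had the same sign in males and females, and their difference between the sexes was small against its error. LPS in Nx gave log2 fold changes of 0.89 in males (adjusted p = 0.0380 by edgeR) and 0.88 in females (adjusted p = 0.0325 by edgeR), where 4.07% and 6.43% of genes were called. LPS after IH gave 0.68 in males (adjusted p = 0.282 by edgeR) and 0.67 in females (adjusted p = 0.154 by edgeR), neither called, where 0.855% and 3.23% of genes were called. IH with LPS gave -0.46 in males and -0.53 in females, and IH with vehicle -0.24 and -0.32. These within-sex values moved widely when 1 sample was left out. The male IH difference was -0.09 with vehicle without male Nx replicate 2 and -0.20 with LPS without male Nx LPS replicate 1, and the female difference with vehicle was -0.16 without female Nx replicate 2. The male minus female difference in effect ranged from 0.01 to 0.08 over the 4 comparisons, with the 95% interval for LPS in Nx running from -0.68 to 0.72, so differences of that size between the sexes remain within the error. The within-sex calls in Nx were lost in most fits that left out 1 sample, and in the fit of the 12 Nx samples alone (adjusted p = 0.0960 in males and 0.0786 in females by edgeR).

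For Vegfa the effects differed more between the sexes in the fit, without passing the test. The log2 difference of IH from Nx with vehicle was -0.01 in males and -0.94 in females, a gap of 0.93 (95% interval -0.65 to 2.51, unadjusted p = 0.233 by edgeR). The log2 fold change with LPS in Nx was 0.15 in males and -0.85 in females, a gap of 1.00 (95% interval -0.58 to 2.57, unadjusted p = 0.202 by edgeR). Both female values rest on female Nx replicate 2, and without it they were 0.07 and 0.16. Apart from treatment, males had a lower Hif1a level than females, by a log2 difference of -0.53 (95% interval -0.96 to -0.10), and a higher Vegfa level, by 0.71 (95% interval 0.14 to 1.27). Slc2a1 was higher in males by 0.28 (95% interval 0.03 to 0.52). None was called by edgeR, the adjusted p being 0.132, 0.128 and 0.161, where 0.397% of genes were called and 25.6% had an unadjusted p below 0.05.

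Among the LPS samples, 2 stood apart in the strength of the response. An LPS score was taken as the mean log2 CPM of Cxcl10, Irf1 and Icam1, which encode a chemokine, an interferon-response transcription factor and an adhesion molecule, and all 3 are among the 12 NF-κB targets above. The 12 vehicle samples had scores of 5.25 to 5.96. Male IH LPS replicate 3 had a score of 6.69 and male Nx LPS replicate 2 a score of 7.37, while the other 10 LPS samples ran from 8.66 to 10.9. In these 2 samples Cxcl10 was at 23.1 and 123 CPM. Slc2a1, at 70.2 and 86.5 CPM, and Hif1a, at 24.4 and 29.2 CPM, were at their lowest of the group in both.

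Without these 2 samples the Slc2a1 calls stood and the Hif1a values with LPS moved up without passing. The Slc2a1 log2 fold change with LPS was then 0.98 in Nx (adjusted p = 8.17e-05 by edgeR) and 0.75 after IH (adjusted p = 0.0019 by edgeR), and its IH difference with LPS was -0.52 (unadjusted p = 0.00347, adjusted p = 0.964 by edgeR). For Hif1a the LPS log2 fold change was 0.45 in Nx (adjusted p = 0.240 by edgeR) and 0.40 after IH (adjusted p = 0.374 by edgeR). For Vegfa it was -0.54 in Nx and 0.00 after IH.

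Across the other 10 LPS samples, Slc2a1 was higher where the LPS score was higher. Pearson's r was 0.833 (permutation p = 0.00242) and Spearman's rho 0.782 (permutation p = 0.0105), among 3 relations computed and without adjustment. Without the 2 samples farthest from the median score r fell to 0.456, so the relation with this score rests on them. After centring on the group means r was 0.663 (permutation p = 0.252), so with this score the relation was not shown within groups. With the 12 NF-κB targets as the score, an alternative chosen after the data were seen, r was 0.935 (permutation p = 1e-04), 0.827 without the 2 farthest samples and 0.817 after centring (permutation p = 0.0428, rho 0.733 with permutation p = 0.0570). The study listed those targets, among them the 3 genes of the LPS score, for low values in IH LPS females of these samples. Slc2a1 was also low there, so the uncentred r of neither score is independent of the choice of genes. The part of that choice was not tested. With the 3-gene score Hif1a had an r of -0.14 (permutation p = 0.703) and -0.21 after centring (permutation p = 0.463). Vegfa had an r of -0.0032 (permutation p = 0.992), which after centring was -0.55 (permutation p = 0.0849, rho -0.71 with permutation p = 0.0417) and with the centred 12-gene score -0.021 (permutation p = 0.959).

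**Figure D4:**
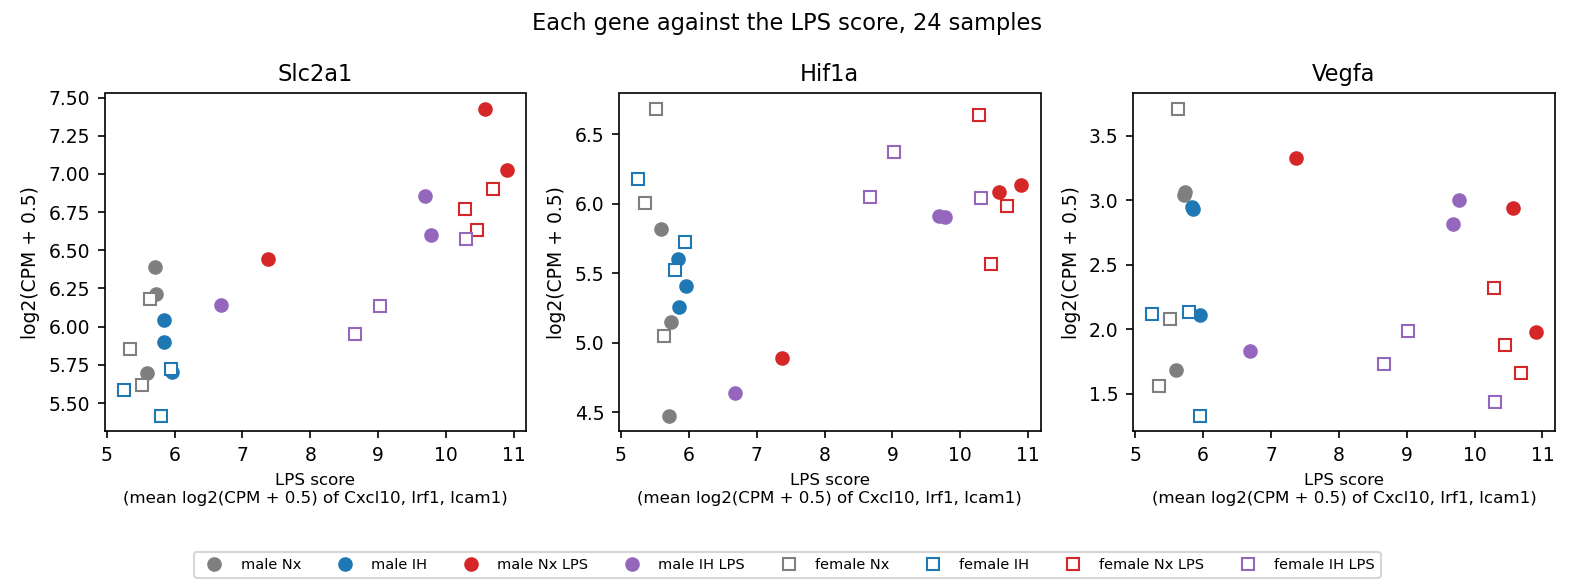
Log2 CPM of Hif1a, Vegfa and Slc2a1 (vertical axes) against the LPS score, the mean log2 of Cxcl10, Irf1 and Icam1 (horizontal axis), 1 point per sample, with 0.5 added to CPM before the log on both axes. The vehicle samples lie at scores of 5.25 to 5.96, and the 2 LPS samples at 6.69 and 7.37 stand apart from the other 10, at 8.66 to 10.9.

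No relation among the 3 genes within groups was shown. Over 24 samples centred on their group means, r was 0.0995 between Slc2a1 and Hif1a (permutation p = 0.741, rho 0.0278), 0.330 between Slc2a1 and Vegfa (permutation p = 0.234, rho 0.283) and -0.293 between Hif1a and Vegfa (permutation p = 0.364, rho -0.273). These 3 relations were chosen after the values were seen. Without the 2 samples farthest from the median of the first gene, r was -0.149, 0.498 and -0.296.

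Likeness of pattern was measured as the root mean square difference of centred log2 CPM over the 8 group means, among 23 other genes with a name. Nearest to Slc2a1 were Cd83, a surface marker of activated antigen-presenting cells, at 0.432, Plat, the tissue plasminogen activator, at 0.457 and the cytokine Il6 at 0.501. Nearest to Hif1a were Slc2a1 at 0.516, Cd83 at 0.619 and Vegfa at 0.655. Nearest to Vegfa were the sphingosine-1-phosphate receptor S1pr3 at 0.409, Gpr15l at 0.490 and Slc2a1 at 0.521. These are distant likenesses, since 3931 of all 12860 genes were at least as close to Slc2a1 as Cd83 was, 10812 as close to Hif1a as Slc2a1 was, and 5846 as close to Vegfa as S1pr3 was.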

How the data were processed

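RNA of microglia from 24 samples was read as stranded, poly(A)-selected libraries on an Illumina HiSeq. The authors aligned reads to rn6 with TopHat2 2.1 and counted them per Ensembl gene with HTSeq in its reverse-stranded setting. The deposited values are raw counts, 1 column per sample, and HTSeq's summary lines were left out of library sizes and tests.

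From these counts, genes with CPM above 1 in at least 3 of 24 samples were kept, TMM factors were computed, and a mean for each of the 8 groups was fitted with edgeR 4.0.16 (R 4.3.3) by its quasi-likelihood test, with Benjamini-Hochberg adjustment over 12860 genes and calls below 0.05. Exact permutation tests used log2(CPM + 0.5), exchanging labels within each sex. DESeq2 1.42.0, other scalings, filters, designs and samples left out are alternatives.

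The members and lists were chosen with earlier results of these data known. Named genes are the 3 members, for each the 3 nearest in pattern, and the 3 genes of the LPS score. Lists of other HIF pathway genes and of cell type markers were not analysed here, since the identifiers of their genes are not paired with names in the tables used here. For the same reason 3 of 14 genes of the LPS list were used. The planned adjustments over the 12 exact tests and over the 3 relations are not given, since they would run over the members alone.

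The labels do not say that a replicate number marks a shared animal, litter or day, and not every same-number pair of samples deviated together, so the number was used as a block only in an alternative. The sample labels give LPS as 0.1 mg/mL in place of 0.1 mg/kg.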

Additional observations from a re-analysis of the deposited data

How the results depend on the processing

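Precision was limited by 3 samples a group and, for Vegfa, by counts of 16 to 90 per sample. The rise of Slc2a1 with LPS in Nx, averaged over the sexes, was called under every alternative and in all 12 fits that left out 1 sample (0.76 to 1.00 on the log2 scale). After IH it was called under every alternative, but in 10 of 12 fits that left out 1 sample (0.57 to 0.76). The within-sex calls of Slc2a1 with LPS in Nx were less stable. They were called in 2 of 6 such fits in males (0.64 to 1.12), being lost without male Nx replicates 1 and 3 and male Nx LPS replicates 1 and 3. In females they were called in 1 of 6 (0.75 to 1.04), that without female Nx replicate 2. In the fit of the 12 Nx samples alone the values were 0.89 in both sexes and not called. The cause was not tested.

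With the replicate block, a fit with the replicate number as a term, Slc2a1 with LPS in male Nx was 0.90 (adjusted p = 0.0506 by edgeR) and no longer called. Under the block the uncalled differences with IH turned sign for Hif1a with vehicle (0.0091, sexes averaged), Vegfa with vehicle in males (0.050) and Hif1a with LPS in females (-0.0050). The block gave 2029 called genes for LPS in Nx and 907 after IH, against 2070 and 921. Over 84 pairs of samples with 1 number, deviations from the group means correlated with a mean r of 0.0487 (-0.609 to 0.526), 37 pairs being over 0.1. The mean for different numbers, -0.0246, is nearly fixed by that value, since the deviations within a group cancel out. The correlations of each sample with those of other groups were also averaged for each number. For 16 of the 24 samples this mean was highest for their own number. What, if anything, samples of 1 number share is not named in the labels and was not tested.

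Without male Nx LPS replicate 2 and male IH LPS replicate 3, the 2 samples of weak LPS response, 1602 genes were called for LPS after IH, and Slc2a1 in males was called there at 0.83 (adjusted p = 0.0337 by edgeR). The uncalled Vegfa values then turned sign, to 0.065 for IH with LPS (0.40 in males), -0.22 for LPS in male Nx, 0.0024 for LPS after IH (0.20 in males) and -0.062 for the LPS minus the IH effect. With upper quartile scaling the Vegfa difference with IH and vehicle in males was 0.0040. The relation to the LPS score was 0.663 for Slc2a1 after centring and no longer passed, and with the 12-gene score it turned to 0.0123 for Hif1a (0.302 after centring) and 0.432 for Vegfa.

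Leaving out 1 sample at a time, the called genes for LPS after IH ran from 602 (without male IH LPS replicate 1) to 1373, with 613 without female IH LPS replicate 1. The uncalled log2 values of Slc2a1 ran from -0.37 to -0.20 for IH with vehicle (-0.42 to -0.092 in males, -0.45 to -0.16 in females), from -0.61 to -0.37 for IH with LPS (-0.68 to -0.20 in males, -0.73 to -0.40 in females) and from -0.32 to -0.084 for the difference of the LPS effects. Those of Hif1a ran from -0.19 to 0.20 for IH with vehicle (-0.093 to 0.58 in males, -0.55 to 0.23 in females), from -0.24 to 0.082 for IH with LPS (-0.52 to 0.10 in males, -0.18 to 0.38 in females), from 0.14 to 0.54 for LPS in Nx (0.28 to 0.96 in males, -0.27 to 0.53 in females), from 0.15 to 0.41 for LPS after IH (-0.027 to 0.48 in males), from 0.17 to 0.49 for the LPS minus the IH effect and from -0.29 to 0.11 for the difference of the LPS effects. Those of Vegfa ran from -0.67 to 0.033 for IH with vehicle (-0.37 to 0.24 in males, -1.33 to 0.074 in females), from -0.42 to -0.091 for IH with LPS (-0.55 to 0.10 in males, -0.45 to -0.041 in females), from -0.55 to 0.15 for LPS in Nx (-0.21 to 0.46 in males, -1.24 to 0.16 in females), from -0.27 to 0.011 for LPS after IH (-0.34 to 0.21 in males), from -0.048 to 0.28 for the LPS minus the IH effect and from -0.29 to 0.41 for the difference of the LPS effects. Other HIF pathway genes, and Nfkbia as the score, were not run, since no identifier was paired with those names.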
